A study of Mus musculus with 3 samples.

Results

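The genes described here encode the chaperones of the cytosol and the mitochondria and the J-domain co-chaperones that work with them. They were taken by name from the probes of a mouse 2-colour array: the small heat shock proteins with Cryab, the Hspa genes and Hsph1 without Hspa5, Hsp90aa1 and Hsp90ab1, the Dnaja, Dnajb and Dnajc genes, Hspd1 and Hspe1, and the TRiC subunits Tcp1 and Cct2 to Cct8. The name rule used no measured value, but the set was chosen with earlier results of these data known. It gave 79 genes with 117 distinct probes, of 30342 gene names and 39429 distinct probes on the array. Of these, 66 genes (95 probes) were kept, that is, had a probe whose Cy3 signal, Cy5 signal or both stood well above background on every array, among 16819 such genes in all. The name rule also took in J-domain and HSP70 genes whose proteins reside in the endoplasmic reticulum, 11 of the 66, so the set is wider than cytosol and mitochondria.

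Chaperones bind unfolded or partly folded proteins and keep them from aggregating. Small heat shock proteins hold such clients without using ATP, HSP70 proteins bind and release them in an ATP cycle that J-domain proteins start and nucleotide exchange factors end, HSP90 matures kinases, steroid receptors and other signalling clients, and the chaperonins (TRiC in the cytosol, Hspd1 with Hspe1 in the mitochondrial matrix) enclose a client in a chamber. Many of these genes are induced together by the transcription factor HSF1 when unfolded protein builds up, and tumour cells often hold them at high levels.

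The samples came from RM1, a mouse prostate cancer cell line. RM1-MXRA7 cells carried transfected MXRA7, whose name stands for matrix remodelling. The control, RM1-VE, carried the vehicle vector. Both lines grew in DMEM with fetal calf serum and the selection antibiotic G418, and RNA was taken in exponential growth on day 2. On each of 3 arrays, numbered as replicates 1 to 3, RM1-MXRA7 RNA was labelled with Cy3 and RM1-VE RNA with Cy5, so each array gave 1 log2 ratio of RM1-MXRA7 over RM1-VE per probe. No dyes were swapped, so a difference between the lines cannot be told apart from an effect of the dyes on a probe. Whether the replicates were separate cultures, whether each line was a clone, and which promoter drove MXRA7 are not stated in the labels. The p-values cover only the spread from array to array, which limma pools across genes, and the number of arrays limits the precision.

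Between 21767 and 24175 of the 39429 probes were well above background in a channel. The log2 ratios of array pairs correlated across genes, which are not independent replicates, with Pearson's r of 0.785 to 0.851. Mxra7 itself lay at 0.31 ± 0.14 on the log2 scale (SD, n = 3; limma adjusted p = 0.00531) before the surface removal described in the next paragraph, and at -0.019 ± 0.044 (SD, n = 3; limma adjusted p = 0.82) after it. The transfected gene therefore gave no check of direction, and each direction given here depends on the labels' account of the dyes. Of the marker lists, 5 of 5 mesenchymal genes (Vim, Col1a1, Col1a2, Col3a1 and Fn1) and 3 of 5 epithelial genes (Krt8, Krt18 and Krt19) were kept. Epcam and Cdh1 of the epithelial list, and Hoxb13, Tmprss2 and Pbsn of the prostate list, were not, and neither were Ptprc and Adgre1 of the leukocyte list, of which Cd68 and Cd3e (2 of 4) were kept.

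The ratios of chaperone genes ran along the rows of the array. Across the 66 genes the Spearman correlation of log2 ratio with array row was -0.69, and across all 16819 genes it was -0.62, each given as a description over genes that share the same arrays. The median log2 ratio was 0.24 for the 34 chaperone genes in rows up to 266 and -0.19 for the 32 in later rows. A surface over row, column and intensity was therefore removed from each array, which brought the correlation to -0.053 for the chaperone genes and 0.0047 for all genes. A gene is said here to have risen or fallen only where limma called it (adjusted p under 0.05, Benjamini-Hochberg over 16819 genes) in the same direction before and after that removal. The polynomial surface left bright probes of the first rows low: the 433 genes with a mean log2 intensity over 15 in rows up to 200 had a median log2 ratio of 0.19 before it and -0.13 after it. A smooth surface, chosen after the data were seen, left them at 0.025, so its values are given as a further reading. The chaperone genes include 10 with a mean log2 intensity over 15 (Cct2, Cct5, Dnaja1, Dnajc5, Hsp90aa1, Hsp90ab1, Hspa4, Hspa8, Hspd1 and Hspe1).

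**Figure D1:**
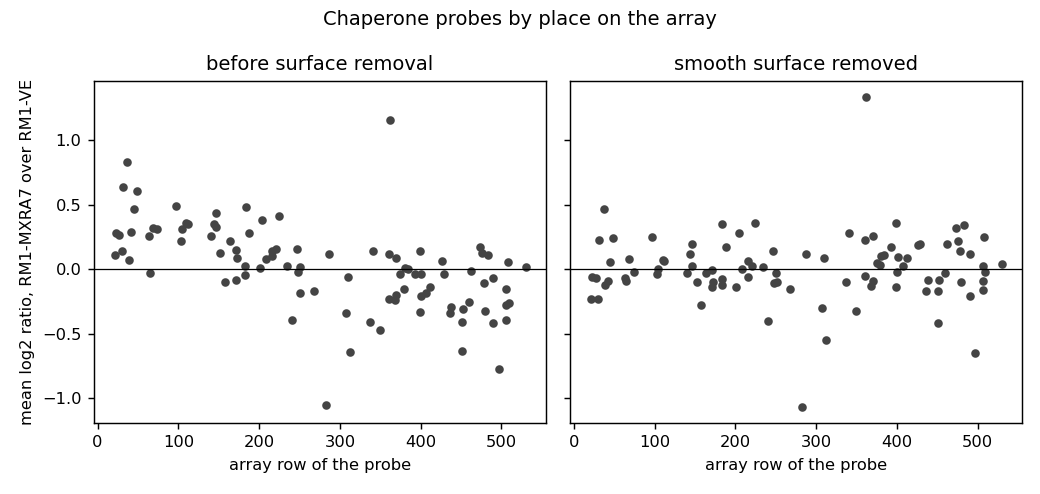
Mean log2 ratio of RM1-MXRA7 over RM1-VE (n = 3 arrays) for each of the 95 kept chaperone probes, against the row of the array on which the probe lies, before surface removal and after removal of a smooth surface. Before removal the points slope from above 0 in the first rows to below 0 in the last rows; after it the slope is gone, and Hspa2 (1.34), highest, and Hspb1 (-1.07), lowest, still stand apart from the other probes.

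As a set, the chaperone genes were called at about the rate of all genes tested. Of the 66, 8 rose, 6 fell and 52 did not pass in both fits. Without replicate 2, 4 rose and 2 fell, and the share of all genes called in that setting is not given here. The 14 calls make 21.2% of the set, against 20.4% of all genes tested (9.56% higher and 10.8% lower). Where the smooth surface is asked for too, 8 rose and 5 fell, which is 19.7% called against 17.7% of all genes (8.25% higher and 9.45% lower). The median log2 ratio was 0.041 before surface removal, -0.0082 after the polynomial surface and -0.018 after the smooth surface, against -0.015, 0.0041 and 0.00087 over all genes. In the fit before surface removal, 19 were higher and 17 lower, where 23.9% and 23.5% of all genes passed (47.3% in all). In the fit after the polynomial surface 14 were higher and 10 lower, where 14.9% and 15.5% passed (30.4% in all). In the fit after the smooth surface 13 were higher and 7 lower, where 14.7% and 15.1% passed (29.9% in all). Passing before the removal alone were 21 genes, after it alone 9, and in opposite directions 1 gene, Hspa4. The matching shares of all genes are not given here, so these counts cannot be set against the whole array. With median centring in place of loess, 2 chaperone genes were higher and 46 lower. All genes then had a median of -0.29 with 58.7% lower, and the chaperone median lay at -0.12 relative to that. In such bulk RNA, a higher level per cell and a larger share of cells with the transcript cannot be told apart.

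Of the 14 called genes, 9 were J-domain genes, and none was a TRiC or mitochondrial chaperonin gene. These groups held 37, 9 and 2 of the 66 genes, and 20.4% of all genes were called. The 14 were Hspb8, Hspa2, Dnajb2, Dnajb4, Dnajb9, Dnajc1, Dnajc9 and Dnajc12 among the rises, and Hspb1, Cryab, Hsp90ab1, Dnaja3, Dnaja4 and Dnajc22 among the falls. At least a 2-fold change was seen for 2 of the 14, Hspa2 and Hspb1. All 14 kept their sign on 3 of 3 arrays after smooth surface removal, and 6 of them were then over 1.5 times smaller on the log2 scale. In Agilent's processed signals, 10 of the 14 passed. Over the 66 genes 8 were higher and 4 lower there, where 11.5% and 12.9% of all genes passed (24.4% in all). The Spearman correlation of log2 ratio with array row in those signals was -0.14 for the 66 genes and -0.065 for all genes.

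**Figure D2:**
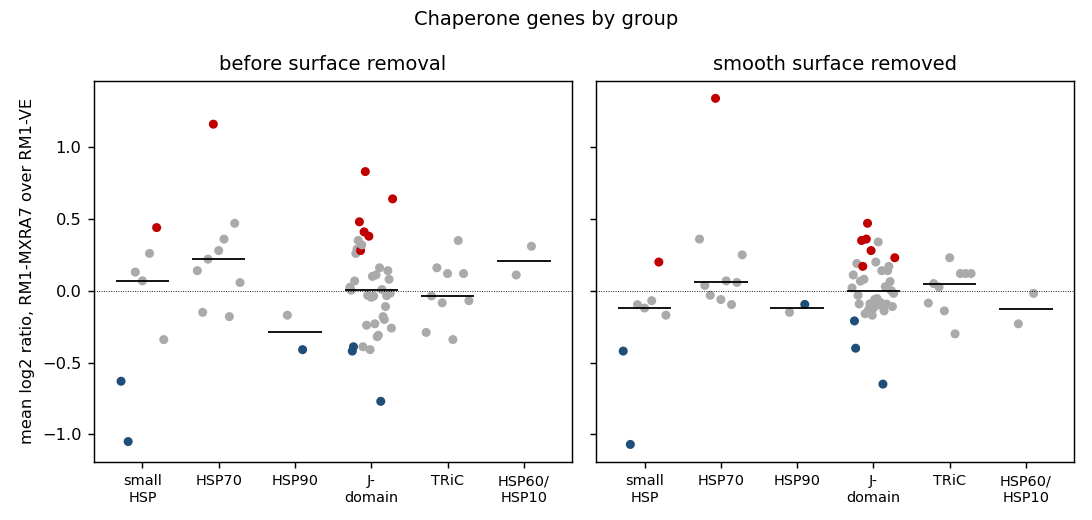
Mean log2 ratio of RM1-MXRA7 over RM1-VE for the 66 chaperone genes by group, before surface removal and after removal of a smooth surface. Each point is a gene (mean of 3 arrays), red where it rose and blue where it fell in both fits, grey otherwise; horizontal lines are group medians, which lay at 0.22 and 0.058 for HSP70 and at 0.0045 and 0.0015 for the J-domain genes before and after removal.

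The probes shown are those of Hspa2, Hspb1, Dnajc1 and Cryab, among the larger changes, and that of Hspa1a. Dnajc22, whose change before surface removal (-0.77) was larger than that of Cryab (-0.63), is not shown. Coordinates were taken from the array files, which use mm9, and whether a probe lies in coding sequence or a UTR was not determined here except by textbook knowledge of the proteins. The probe used for Hspa2 covers chr12:77507769-77507828 on the + strand and the probe for Hspb1 covers chr5:136365366-136365425 on the + strand; the first 30 of their 60 bases are shown. The Dnajc1 probe covers chr2:18138907-18141091 on the - strand, an interval longer than its 60 bases, so it joins exons. For Cryab, measured by more than 1 probe, the dimmer one is shown because it lies in coding sequence; it covers chr9:50561458-50561517 on the + strand. The Hspa1a probe, also in coding sequence, covers chr17:35107117-35107176 on the - strand.
Hspa2, first 30 bases: ctgtggaagcttggttacactaagacacag
Hspb1, first 30 bases: gctcttttgatacatacatttacctgctgt
Dnajc1: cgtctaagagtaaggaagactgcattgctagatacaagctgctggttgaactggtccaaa
Cryab, dimmer probe: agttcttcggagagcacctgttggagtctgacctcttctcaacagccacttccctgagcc
Hspa1a: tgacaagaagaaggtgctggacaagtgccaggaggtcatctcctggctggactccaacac

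Among the small heat shock genes, Hspb1 and Cryab fell and Hspb8 rose. Of 9 genes, 7 were kept; 1 rose, 2 fell and 4 did not pass in both fits, which is 42.9% called against 20.4% of all genes, over few genes and not tested. The group median was 0.069 before surface removal and -0.12 after the smooth surface. Hspb1, an actin-protecting small heat shock protein abundant in stressed cells, had log2 ratios of -0.72, -1.23 and -1.19 on arrays 1, 2 and 3. All lay far below 0, the first array least so. The mean was -1.05 ± 0.28 (SD, n = 3; limma adjusted p = 6.37e-07), a 2.07-fold lower level, and the mean was -1.01 after the polynomial surface and -1.07 after the smooth one. By size of fall, Hspb1 ranked 110 of 16819 genes.

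Cryab, the crystallin that is also a small heat shock protein of muscle and stressed cells, had ratios of -0.41, -0.63 and -0.84. The mean was -0.63 ± 0.22 (SD, n = 3; limma adjusted p = 4.82e-05), with -0.43 and -0.42 after the polynomial and the smooth surface. Without replicate 2 the fall did not pass after surface removal (limma adjusted p = 0.108). Its dimmer probe gave -0.35, -0.46 and -0.60, a mean of -0.47, and -0.32 after the smooth surface, and it too passed in all 3 readings. Hspb2, which lies beside Cryab on chromosome 9 and encodes a muscle small heat shock protein, had ratios of 0.14, 0.012 and 0.059 and did not pass.

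Hspb8, a small heat shock protein that with Bag3 hands clients to autophagy, had ratios of 0.57, 0.52 and 0.22. The mean was 0.44 ± 0.19 (SD, n = 3; limma adjusted p = 0.000739), but 0.21 after the polynomial and 0.20 after the smooth surface. When an array was left out, Hspb8 passed in both fits in 1 of 3 cases, that without replicate 3. The other kept small heat shock genes were Hspb6 (0.26, then -0.069 after the smooth surface), Hspb9 (-0.34, then -0.17) and Hspb11 (0.13, then -0.097). Hspb6 passed before removal alone (limma adjusted p = 0.0167). Hspb9, with a dim probe (mean log2 intensity 7.8), passed before removal (limma adjusted p = 0.00203) and after the smooth surface (limma adjusted p = 0.0381). It did not pass after the polynomial surface (limma adjusted p = 0.0638). Hspb3 and Hspb7 were not well above background.

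Among the HSP70 genes, Hspa2 rose and 8 of the 9 kept did not pass in both fits, which is 11.1% called against 20.4% of all genes. The group median was 0.22 before surface removal and 0.058 after the smooth surface, against -0.015 and 0.00087 over all genes. Hspa2, the HSP70 known best for its high level in the testis and its need in sperm formation, had ratios of 1.14, 1.24 and 1.09. The 3 arrays lay close together and far above 0. The mean was 1.16 ± 0.076 (SD, n = 3; limma adjusted p = 1.34e-08), or 2.24-fold higher. Unlike most of the called genes, Hspa2 had a larger ratio after surface removal, 1.3 after the polynomial and 1.34 after the smooth surface. It ranked 49 of 16819 genes by size of rise and stayed called in both fits with each array left out.

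The other HSP70 genes did not change in both fits. Hspa8, the constitutive cytosolic HSP70, had ratios of -0.093, -0.16 and -0.29, a mean of -0.18 ± 0.10 (SD, n = 3), and -0.24 and -0.096 after the polynomial and the smooth surface. Its 2 dimmer probes had means of -0.06 and 0.33 before removal and 0.09 and 0.025 after the smooth surface, so its 3 probes lay on both sides of 0 in both readings. Hspa9, the mitochondrial HSP70 that also drives protein import, had ratios of 0.49, 0.60 and 0.31 and passed before surface removal (0.47 ± 0.15, SD, n = 3; limma adjusted p = 0.00029). It lay at 0.13 after the polynomial surface (limma adjusted p = 0.103) and at 0.058 after the smooth surface. Its probe lies in row 45, where the ratios of chaperone genes were high before the surface was removed.

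Hspa4, an HSP110-type exchange factor for HSP70, was called in opposite directions. Its ratios were 0.30, 0.41 and 0.12 before surface removal, a mean of 0.28, and the mean was -0.19 after the polynomial surface. After the smooth surface it was -0.061 and did not pass (limma adjusted p = 0.432). Hspa4l, of the same type, had ratios of 0.24, 0.69 and 0.14 and a mean of 0.36, then 0.069 after the smooth surface. Hsph1, the stress-inducible HSP110, had ratios of 0.32, 0.16 and -0.30, which lay on both sides of 0. Its mean was 0.057 ± 0.32 (SD, n = 3) before surface removal and 0.25 ± 0.27 (SD, n = 3; limma adjusted p = 0.0876) after the smooth surface; after the polynomial surface it passed, at 0.32 (limma adjusted p = 0.0268). A dimmer Hsph1 probe, with ratios of 0.82, 0.74 and 0.26, was called higher in both fits (0.61, limma adjusted p = 0.000102, and 0.28, limma adjusted p = 0.0306) but not after the smooth surface (0.24, limma adjusted p = 0.0736). The mean of the kept Hsph1 probes was 0.33 before surface removal and passed (limma adjusted p = 0.0216). Hspa12b, a distant HSP70 relative known from endothelium, lay at 0.14 before removal and passed after it, at 0.34 after the polynomial and 0.36 after the smooth surface; it was picked after its values were seen. Hspa13 lay at -0.15 and 0.037, and Hspa14 at 0.22 and -0.031, before removal and after the smooth surface.

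The stress-inducible Hspa1a was well above background in RM1-MXRA7 RNA (Cy3) on 2 of 3 arrays and in RM1-VE RNA (Cy5) on 0 of 3. No fold is given for it. Its probe lies in coding sequence that Hspa1a shares almost wholly with its neighbour Hspa1b, so the signal cannot be assigned to either gene, and the array names no probe Hspa1b. Hspa1l and Hspa12a were not well above background on all arrays in a channel either.

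**Figure D3:**
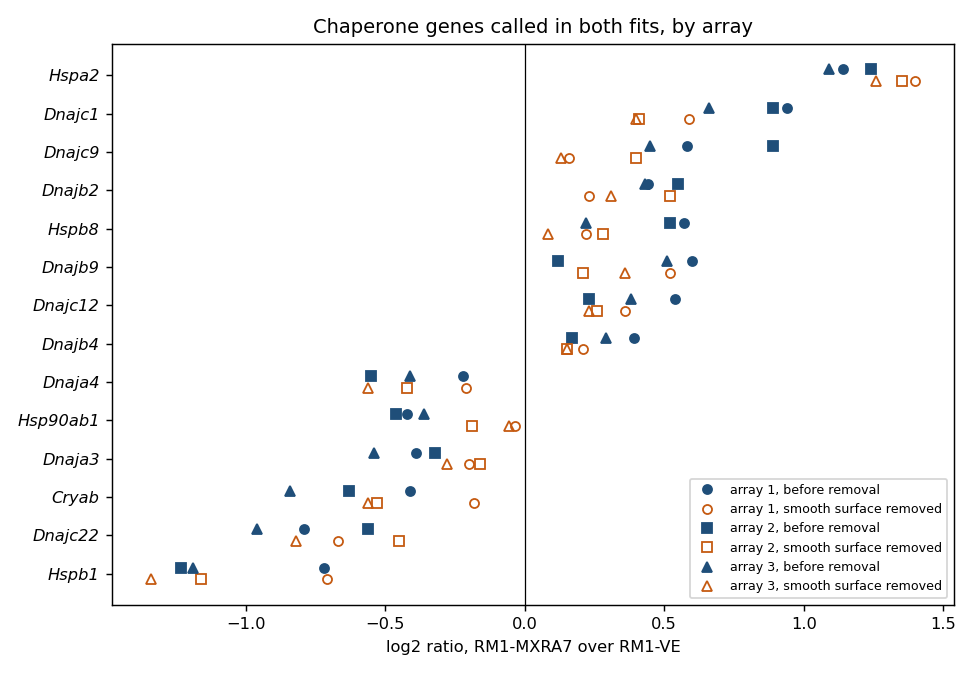
Log2 ratio of RM1-MXRA7 over RM1-VE on each of the 3 arrays for the 14 chaperone genes called in both fits, before surface removal (filled) and after removal of a smooth surface (open). Every point of a gene lies on the same side of 0; Hspa2 and Hspb1 keep their distance from 0 after removal, while Dnajc9 (0.64 to 0.23) and Hsp90ab1 (-0.41 to -0.095) move towards it.

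The J-domain genes, which set the ATP cycle of HSP70 going and choose its clients, held 9 of the 14 called genes. Of 45 genes, 37 were kept; 6 rose, 3 fell and 28 did not pass, which is 24.3% called against 20.4% of all genes. Their median was 0.0045 before surface removal and 0.0015 after the smooth surface. By subfamily, 0 of 4 kept Dnaja genes rose and 2 fell, 3 of 9 kept Dnajb genes rose and 0 fell, and 3 of 24 kept Dnajc genes rose and 1 fell. These counts are small and no difference between the subfamilies was tested.

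Dnajc1, a J-domain protein of the endoplasmic reticulum membrane, had ratios of 0.94, 0.89 and 0.66. The mean was 0.83 ± 0.15 (SD, n = 3; limma adjusted p = 1.41e-06), or 1.78-fold higher, with 0.57 and 0.47 after the polynomial and the smooth surface. It ranked 111 of 16819 genes by size of rise and stayed called in both fits with each array left out. Dnajc9, a histone-binding J-domain protein of the nucleus, had ratios of 0.58, 0.89 and 0.45. The mean of 0.64 ± 0.23 (SD, n = 3; limma adjusted p = 4.68e-05) went to 0.24 and 0.23, and the rise did not pass after surface removal without replicate 2 (limma adjusted p = 0.194). Dnajc12, a co-chaperone of the aromatic amino acid hydroxylases, had ratios of 0.54, 0.23 and 0.38, a mean of 0.38 ± 0.16 (SD, n = 3; limma adjusted p = 0.0014), and 0.29 and 0.28 with the surfaces removed. Without replicate 2 it did not pass after surface removal (limma adjusted p = 0.0641).

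Of the Dnajb genes, Dnajb2, Dnajb9 and Dnajb4 rose. Dnajb2, which brings ubiquitinated clients to the proteasome, had ratios of 0.44, 0.55 and 0.43, a mean of 0.48 ± 0.068 (SD, n = 3; limma adjusted p = 0.000158), and 0.35 after the smooth surface. Dnajb9, an endoplasmic reticulum J-domain protein induced by the unfolded protein response, had ratios of 0.60, 0.12 and 0.51, with array 2 well below the others. Its mean was 0.41 ± 0.25 (SD, n = 3; limma adjusted p = 0.00198), and it was 0.36 after the smooth surface. A dimmer probe of each lay on the same side of 0, at 0.13 for Dnajb2 and 0.17 for Dnajb9 before removal and at 0.22 and 0.32 after the smooth surface. Dnajb4 had ratios of 0.39, 0.17 and 0.29, a mean of 0.28 ± 0.11 (SD, n = 3; limma adjusted p = 0.00824), and 0.17 after the smooth surface; with any array left out it did not pass in both fits.

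Dnajc22, Dnaja3 and Dnaja4 fell. Dnajc22, a little-studied membrane J-domain protein, had ratios of -0.79, -0.56 and -0.96, a mean of -0.77 ± 0.20 (SD, n = 3; limma adjusted p = 5.49e-06), and -0.65 after the smooth surface. It stayed called with each array left out, and in Agilent's processed signals its ratio was -1.14. Its probe was dim, with a mean log2 intensity of 7.6, where the chaperone genes not kept lay at 6.0 to 6.5. Dnaja3, the mitochondrial partner of Hspa9, had ratios of -0.39, -0.32 and -0.54, a mean of -0.42 ± 0.11 (SD, n = 3; limma adjusted p = 0.000545), and -0.21 after the smooth surface. With any array left out Dnaja3 did not pass in both fits. Dnaja4, a cytosolic J-domain protein, had ratios of -0.22, -0.55 and -0.41, a mean of -0.39 ± 0.17 (SD, n = 3; limma adjusted p = 0.00125), and -0.40 after both surfaces. Without replicate 2 Dnaja4 did not pass after surface removal (limma adjusted p = 0.0577).

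The general stress-linked J-domain partners of cytosolic HSP70 did not pass in both fits. Dnaja1 had ratios of 0.093, -0.064 and 0.045, on both sides of 0, with a mean of 0.024 ± 0.081 (SD, n = 3). Dnajb1, the HSF1-induced partner, had ratios of 0.026, 0.25 and -0.071 and a mean of 0.068 ± 0.16 (SD, n = 3). It lay at 0.29 and 0.19 after the polynomial and the smooth surface and passed there (limma adjusted p = 0.00722 and 0.0403). Dnajc18 and Dnajc16 lay at 0.11 and -0.037 before removal and at 0.34 and 0.20 after the smooth surface, where both passed. Both were picked after their values were seen.

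By the probe used for the gene, none of the remaining J-domain genes passed in both fits. Before surface removal Dnajb12 (0.29), Dnajb14 (0.35), Dnajb5 (0.32) and Dnajb11 (0.26) were higher, and after the smooth surface they lay at -0.092, 0.067, 0.08 and -0.032 and did not pass. Likewise Dnajb6 (-0.39), Dnajc13 (-0.41), Dnajc19 (-0.32), Dnajc2 (-0.31), Dnajc8 (-0.26), Dnajc10 (-0.24), Dnajc17 (-0.23) and Dnajc27 (-0.20) were lower before it, and lay between -0.17 and -0.018 after the smooth surface, where none of these 8 passed. By that probe, Dnaja2, Dnajc3, Dnajc4, Dnajc5, Dnajc7, Dnajc11, Dnajc14, Dnajc15, Dnajc21, Dnajc24, Dnajc25 and Dnajc30 did not pass before removal, after the polynomial surface or after the smooth surface. Some of these 12 lay further from 0 after the smooth surface, as did Dnajc30 (-0.034, then 0.17) and Dnajc24 (0.0083, then -0.14), and Dnajc3 turned from -0.11 to 0.14. Dimmer probes of Dnajc19 and Dnajc25 passed in each of these readings, as described with the other probes below. Dimmer probes of Dnaja2, Dnajb6, Dnajb14, Dnajc5, Dnajc8, Dnajc10, Dnajc11, Dnajc21 and Dnajc24 passed in some of the readings. Dnajb3, Dnajb7, Dnajb8, Dnajb13, Dnajc5b, Dnajc5g, Dnajc6 and Dnajc28 were not well above background on all arrays in a channel.

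The HSP90 genes were lower before surface removal, and only Hsp90ab1 passed. Hsp90ab1, the constitutive cytosolic HSP90, had ratios of -0.42, -0.46 and -0.36, a mean of -0.41 ± 0.050 (SD, n = 3; limma adjusted p = 0.000495), and -0.30 after the polynomial surface (limma adjusted p = 0.0054). Without replicate 2 it did not pass after the polynomial surface (limma adjusted p = 0.0714). Its probe had a mean log2 intensity of 17.3. After the smooth surface its ratios were -0.035, -0.19 and -0.057, a mean of -0.095 that did not pass (limma adjusted p = 0.227). In the processed signals it lay at -0.13. Hsp90aa1, the stress-inducible form, had ratios of -0.17, -0.19 and -0.15 and did not pass in any of the readings (-0.17, -0.15 and -0.21 after the polynomial surface, after the smooth surface and in the processed signals).

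The mitochondrial chaperonin genes Hspd1 (HSP60) and Hspe1 (HSP10) did not pass in both fits. Hspd1 had ratios of 0.18, 0.24 and -0.10, a mean of 0.11 ± 0.18 (SD, n = 3). After the polynomial surface its mean was -0.34 (limma adjusted p = 0.00433) and after the smooth surface -0.23 (limma adjusted p = 0.0318), so its sign turned with the surface. Hspe1 had ratios of 0.35, 0.48 and 0.11, a mean of 0.31 ± 0.19 (SD, n = 3; limma adjusted p = 0.00714), and -0.068 and -0.018 with the surfaces removed. Both genes have near-identical processed copies in the mouse genome, so their signals are uncertain in that respect. Of 8 kept mitochondrial members (Hspa9, Hspd1, Hspe1, Dnaja3, Dnajc11, Dnajc15, Dnajc19 and Dnajc30), 0 rose and 1 fell, which is 12.5% called against 20.4% of all genes.

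None of the 9 TRiC genes rose or fell in both fits, where 20.4% of all genes did. The TRiC genes are few and no difference was tested. Their means ran from -0.34 to 0.35 before surface removal and from -0.30 to 0.23 after the smooth surface, with medians of -0.036 and 0.05. Before removal alone, Cct7 was higher (0.35 ± 0.22, SD, n = 3; limma adjusted p = 0.00447), and Cct2 (-0.29) and Cct6b (-0.34) were lower. After the smooth surface Cct7 lay at 0.12, Cct2 at -0.086 and Cct6b at -0.30, and none of these 3 passed. Cct6a, the common zeta subunit, lay at 0.12 before removal and passed after it, at 0.26 after the polynomial and 0.23 after the smooth surface (limma adjusted p = 0.0135 and 0.0175). With the smooth surface removed, Tcp1 went from -0.069 to 0.12, Cct3 from -0.036 to 0.05, Cct4 from 0.16 to 0.026, and Cct5 from -0.084 to -0.14, while Cct8 stayed at 0.12. After the polynomial surface, Cct5 passed as lower (-0.30, limma adjusted p = 0.00457) and Tcp1 as higher (0.19, limma adjusted p = 0.0355). Neither passed after the smooth surface. The subunit genes of this complex had ratios on both sides of 0 in each reading. Cct6b is a testis-enriched form of the zeta subunit, and its Cy3 signal was well above background on 1 of 3 arrays.

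The endoplasmic reticulum members rose in 2 of 11 cases (Dnajb9 and Dnajc1) and fell in 0, which is 18.2% called, near the 20.4% of all genes. The counterparts that the name rule left out did not pass in both fits. Hspa5 lay at -0.14 and -0.014, Hsp90b1 at 0.43 and 0.16, and Hyou1 at 0.097 and -0.047 before removal and after the smooth surface. Hsp90b1 passed before removal (limma adjusted p = 0.00221). The arrays disagreed after the smooth surface, with array 1 highest for each gene. By array, the values were 0.38, -0.15 and -0.28 for Hspa5, and 0.46, 0.057 and -0.043 for Hsp90b1. For Hyou1, whose probe was dim (mean log2 intensity 7.3), they were 0.22, -0.12 and -0.24. Hspa5 (BiP), Hsp90b1 and Hyou1 are standard readouts of the unfolded protein response. Dnajc3 and Dnajb11, J-domain partners of Hspa5, had means of -0.11 and 0.26 before removal and 0.14 and -0.032 after the smooth surface.

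Genes known as HSF1 targets went in both directions. Of 15 listed, 14 were on the array and 13 were kept; 2 rose (Hspb8 and Dnajb4) and 3 fell (Hspb1, Cryab and Hsp90ab1), or 2 and 2 where the smooth surface is asked for too. That is 38.5% and 30.8% called, against 20.4% and 17.7% of all genes, a difference that was not tested. The list median was 0.057 before removal and -0.018 after the smooth surface. Of 5 further HSF1 targets among the partner genes (Bag3, Chordc1, Ahsa1, Stip1 and Fkbp4), 1 rose and 0 fell. Hsf1 itself lay at 0.17 ± 0.21 (SD, n = 3) and did not pass, and Hsf2 at 0.27 passed before surface removal alone.

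The partner genes, a list of 52 co-chaperones, exchange factors, prefoldins and heat shock factors, had 12% called in both fits, against 20.4% of all genes; the difference was not tested. Of 50 kept, 4 rose, 2 fell and 44 did not pass in both fits. In the fit before surface removal, 17 were higher and 4 lower, where 23.9% and 23.5% of all genes passed. These counts include the genes called in both fits. The median of the 50 kept partner genes went from 0.17 to 0.075 with the smooth surface removed. Ptges3 (p23), which steadies HSP90 in its closed state, had ratios of 0.62, 0.84 and 0.50, a mean of 0.66, and 0.35 after the smooth surface. Ahsa1, which speeds the ATPase of HSP90, had ratios of 0.58, 0.67 and 0.17, a mean of 0.48, and 0.23 after the smooth surface. These were the rises in both fits among 15 kept HSP90 co-chaperones, of which 0 fell. Cdc37, measured by a bright probe in row 68, passed before removal (0.52, limma adjusted p = 0.000156) and after the smooth surface (0.25, limma adjusted p = 0.0127). It did not pass after the polynomial surface (0.09, limma adjusted p = 0.279). Fkbp4, Ppid and Nudcd2 passed as lower after the smooth surface (-0.2, -0.2 and -0.28).

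St13 (HIP), which holds HSP70 in its ADP state, had ratios of 0.80, 0.75 and 0.58, a mean of 0.71, and 0.30 after the smooth surface. Of the 10 kept HSP70 exchange factors and partners, 1 (St13) rose and 0 fell in both fits. Bag3, Bag5 and Bag6, which also act on HSP70, lay at 0.19, 0.14 and 0.12 before removal and did not pass, and at 0.31, 0.34 and 0.23 after the smooth surface, where all 3 passed. Stub1 passed before removal (0.62, limma adjusted p = 1.79e-05) and after the smooth surface (0.19, limma adjusted p = 0.0351). It did not pass after the polynomial surface (0.16, limma adjusted p = 0.0528). Hsbp1, a small binding partner of HSF1, had ratios of 0.57, 0.73 and 0.60, a mean of 0.63, and 0.21 after the smooth surface. Of the 8 mitochondrial partners, Clpb, a disaggregase, fell (-0.31, -0.44 and -0.60, and a mean of -0.24 after the smooth surface), as did Trap1, the mitochondrial HSP90 (-0.25, -0.36 and -0.085, and -0.26). None of the 9 prefoldin and phosducin-like genes passed in both fits, against 20.4% of all genes, over few genes and not tested. Before surface removal 5 of them were higher and 1 lower, where 23.9% and 23.5% of all genes passed.

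Several chaperone genes were measured by more than 1 probe, which gives a reading the gene-level result did not use. Of the 21 genes with more than 1 kept probe, 13 had probes of opposite sign before surface removal and 7 after the smooth surface. The median range between probes of a gene went from 0.32 to 0.15 after the polynomial surface, 0.14 after the smooth surface and 0.19 in Agilent's processed signals. The probes of Dnajc8 in rows 27, 171 and 509 lay at 0.27, 0.15 and -0.26 before removal, a range of 0.53 that went to 0.057 after the smooth surface. Those of Hsph1 in rows 49 and 508 lay at 0.61 and 0.057, and at 0.24 and 0.25 after the smooth surface. Dnajc8, and likewise Dnajb6, Dnajc19 and Dnajc25, were picked for this after their values were seen.

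Of the 3 kept Hspe1 probes, those in rows 74 and 506 overlap by 57 of 60 bases. A stretch of 30 bases that both hold is shown, from the probe in row 506 (chr1:55148023-55148082) and from that in row 74 (chr1:55148026-55148085), with the base at which they differ in capitals.
Hspe1, row 506: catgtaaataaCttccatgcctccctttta
Hspe1, row 74: catgtaaataaTttccatgcctccctttta
The difference is C12T, with positions counted from 1 at the 5′ end of the stretch and the base of the row 506 probe first. Before surface removal the row 506 probe lay at -0.28 and the row 74 probe at 0.31, and after the smooth surface they lay at -0.09 and -0.018. The other Hspe1 probe, in row 30, which covers chr1:55147620-55147946, lay at 0.14 before removal and did not pass. It lay at -0.22 after the polynomial surface (limma adjusted p = 0.0245) and at -0.23 after the smooth surface (limma adjusted p = 0.0213), and passed in both. The Dnajb6 probes in rows 506 and 172, which share 51 identical bases, lay at -0.39 and 0.089 before removal and at -0.16 and -0.098 after the smooth surface. The other Dnajb6 probes, in rows 341 and 412, lay at 0.14 and -0.14 before removal and at 0.28 and 0.088 after the smooth surface.

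**Figure D4:**
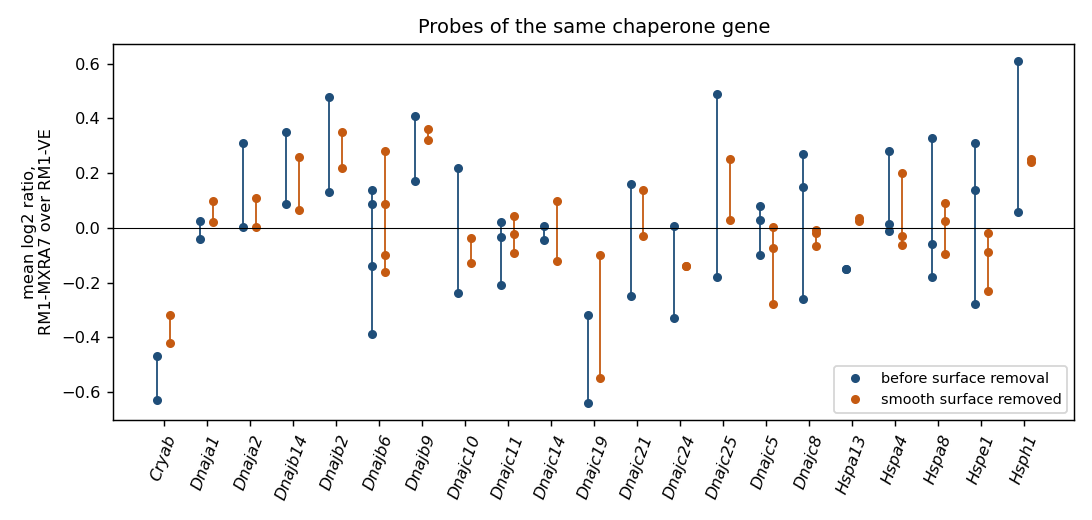
Mean log2 ratio of RM1-MXRA7 over RM1-VE (n = 3 arrays) of each kept probe for the 21 chaperone genes with more than 1, before surface removal and after removal of a smooth surface; lines join the probes of a gene. The lines shorten for most genes, from a median range of 0.32 to 0.14, while Dnajb6 and Dnajc19 keep probes that lie 0.44 and 0.45 apart.

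Other probes of a gene differed in every reading. A dimmer Dnajc19 probe had ratios of -0.76, -0.68 and -0.47, a mean of -0.64, and -0.55 after the smooth surface. It passed before removal (limma adjusted p = 1.2e-05), after the polynomial surface (-0.56, limma adjusted p = 0.000297) and after the smooth surface (limma adjusted p = 0.000544). The brighter Dnajc19 probe, used for the gene, had -0.36, -0.23 and -0.37, a mean of -0.32, and -0.099 after the smooth surface. Dnajc19 encodes a J-domain protein of the mitochondrial inner membrane. A dimmer Dnajc25 probe had ratios of 0.52, 0.69 and 0.27, a mean of 0.49, and 0.25 after the smooth surface, against -0.18 and 0.028 for the brighter one. The dimmer Dnajc25 probe too passed before removal (limma adjusted p = 0.000229), after the polynomial surface (0.26, limma adjusted p = 0.019) and after the smooth surface (limma adjusted p = 0.0176). Which transcripts these probes detect was not determined here. Counting each of the 95 kept probes on its own, 10 rose and 8 fell in both fits, and 9 and 7 where the smooth surface is asked for too. The shares over all kept probes are not given here, so these counts cannot be set against the whole array.

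The promoters of the set were searched for a strict heat shock element, the inverted GAA repeats that HSF1 binds. It was written as 3 units with 2 free bases between them, either GAA, TTC and GAA or TTC, GAA and TTC, on both strands. The window ran from 250 bases before to 50 after the start of a gene in RefSeq (GRCm38.p6), and the forms overlap where a site holds more repeats. Of 79 chaperone genes, 63 had a promoter in the table. The element was found in 4 of these (6.35%: Hspd1, Hspe1, Dnajb6 and Hsph1), against 179 of 27025 genes in the table (0.662%). Hspd1 and Hspe1 are divergent neighbours with starts at 55087932 and 55088148 on chromosome 1, and the same site lies between them, so they are not separate cases. The sites are shown in 30 bases each (coordinates of GRCm38.p6), on the strand of the gene for Hsph1 (chr5:149636287-149636316, - strand) and Dnajb6 (chr5:29735844-29735873, + strand) and on the + strand for the shared site (chr1:55088053-55088082), with the match in capitals.
Hspd1 and Hspe1: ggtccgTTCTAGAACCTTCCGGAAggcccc
Hsph1: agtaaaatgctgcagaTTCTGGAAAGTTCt
Dnajb6: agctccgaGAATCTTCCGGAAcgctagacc
The genes with a match had log2 ratios of 0.11, 0.31, 0.057 and -0.39 before surface removal for Hspd1, Hspe1, Hsph1 and Dnajb6, and of -0.23, -0.018, 0.25 and -0.16 after the smooth surface. None of these 4 rose or fell in both fits. Of the 14 called genes, 10 had a promoter in the table and 0 of these held a match. With 0.662% of all genes matching, 0 of 10 cannot be told apart from that rate. Hspa1a, Dnaja1 and Dnajb1, on the list of HSF1 targets, held no match. The absence of this strict form therefore does not show that a gene lacks a heat shock element. A match is a description of these letters in this window and shows no binding.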

How the data were processed

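Total RNA of RM1-MXRA7 (Cy3) and RM1-VE (Cy5) was compared on 3 Agilent arrays that lay on 1 slide. The files the authors deposited are, per the file headers, output of Agilent Feature Extraction (version 10.7.1.1 per the submitters' processing notes) with the mean, background and processed intensity of each spot in both channels. A linear ratio per probe stands in the series matrix the authors deposited. It equalled processed Cy3 over Cy5 signal within 1% for 100% of the values, with column medians of 1.02, 1.03 and 0.972. Which steps Feature Extraction took beyond this is not given in the sources used here.

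In limma 3.58.1 (R 4.3.3), normexp with an offset of 50 corrected the background and loess normalized each array. Control spots and outlier spots were left out, spots of a probe averaged, and and 21792 probes kept that were well above background in Cy3 or in Cy5 on each of the 3 arrays. Names came from RefSeq by accession for 27508 probes and from the files for 11921. The brightest kept probe stood for a gene. Log2 ratios were tested against 0 with limma (13.6 prior and 2 residual degrees of freedom). The polynomial surface (degree 4 in row and column, alone and times log2 intensity) accounted for 34.5% (array 1), 33.7% (array 2) and 25.5% (array 3) of the variance. The smooth surface (mgcv 1.9.3), added after the data were seen, used tensor product smooths of row with intensity and of column, alone and with intensity. Unlike the polynomial, it had no term that joins row and column. The median SD between arrays was 0.118 before, 0.0941 after the polynomial and 0.0893 after the smooth surface. The steps were also run on simulated data, with independent genes and a trend alike on all arrays. The outcome is not given here, so it is no check of the surface removal on these data.

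The genes and gene lists were chosen with earlier results of these data known. Named genes are those called in both fits, the 3 largest absolute ratios of each group, a set list of general chaperones, and up to 3 called partners a list. Other chaperone genes are named to account for all of them or because their values were seen. Each array pairs the lines under a replicate number, and the log ratio keeps that pairing. Alternatives covered background correction, normalization, filter, collapse of probes, source of values, test and arrays left out. Some members of the prostate marker list are not reported here.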

Additional observations from a re-analysis of the deposited data

How the results depend on the processing

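With single channels and the array as replicate block, 19 chaperone genes were higher and 17 lower, and 17 and 4 partner genes, the counts of the log ratio fit. With no replicate block these were 6 and 8, and 10 and 2. Shares over all genes are not given here for the single-channel fits or with arrays left out. Those counts therefore cannot be set against the whole array. Agilent's processed signals, and the series matrix made from them, gave 8 and 4, and 7 and 2. Median centring gave 2 and 46, and 1 and 27. The polynomial surface left 10 chaperone genes lower and 8 partner genes higher, and the smooth surface 7 and 9. Leaving out 1 array gave 9 to 20 chaperone genes higher and 12 to 14 lower, 13 to 23 partner genes higher and 3 lower, and, called in both fits, 4 to 9 chaperone genes higher and 2 to 7 lower, both lowest without replicate 2 (4 and 2). Of the 14 called genes, 6 were called in both fits with each array left out, and none changed sign in any alternative. Signs turned for other named genes. In the processed signals and the series matrix these were Cct3 (0.084), Dnaja1 (-0.024), Hspd1 (-0.18) and Tcp1 (0.091). After the polynomial surface they were Cct3 (0.14), Dnaja1 (-0.0054), Hspd1 (-0.34), Hspe1 (-0.068) and Tcp1 (0.19), and after the smooth surface Cct3 (0.05), Hspd1 (-0.23), Hspe1 (-0.018) and Tcp1 (0.12). With median centring they were Cct4 (-0.41), Cct6a (-0.30), Cct7 (-0.27), Cct8 (-0.49), Dnaja1 (-0.67), Dnajb1 (-0.48), Hspa9 (-0.025), Hspd1 (-0.58), Hspe1 (-0.35) and Hsph1 (-0.41). The mean of the kept probes turned Dnaja1 (-0.0074) and Hspa8 (0.03). With 1 array left out, Dnaja1 ranged from -0.0098 (without replicate 1) to 0.069, Hsph1 from -0.072 (without replicate 1) to 0.24, Dnajb1 from -0.023 (without replicate 2) to 0.14, and Cct3 from -0.14 to 0.039 (without replicate 3). The cause was not tested. An offset of 16, and every kept probe tested on its own, kept the sign and call of all 32 named genes. The filter on both channels leaves out Cct6b, whose Cy3 signal was well above background on 1 of 3 arrays.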

Other observations

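The genes around Hspa2, Dnajc1, Hspb1 and Cryab are given as values, and those around Dnajc22 are not given here. Over all genes tested, 9.56% rose and 10.8% fell in both fits. The neighbours are few, and no difference from these shares was tested. Within 500 kb of Hspa2, 14 genes were tested, with a median log2 ratio of -0.027 and a range of -0.58 to 0.55, of which 2 rose and 3 fell in both fits. Within the same distance of Dnajc1, 6 genes were tested, with a median of 0.087 and a range of -0.077 to 0.29, and 1 rose and 0 fell. Around Hspb1, 19 genes had a median of -0.067 and a range of -1.18 to 0.47, and 1 rose and 4 fell. Around Cryab, 19 genes had a median of -0.11 and a range of -1.7 to 0.42, and 1 rose and 6 fell. The lowest neighbour of each thus lay below the gene itself (-1.05 for Hspb1 and -0.63 for Cryab).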
